A study of Mus musculus with 4 samples.

Results

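The genes described are the ligands *Igf1* and *Igf2*, the receptors *Igf1r* and *Igf2r* and the binding proteins *Igfbp2*, *Igfbp3*, *Igfbp4*, *Igfbp5*, *Igfbp6* and *Igfbp7*. They were chosen by symbol as a signaling family, and all 10 were found among the 53703 features of the files. They were read in 4 droplet-based scRNA-seq libraries (10x Chromium, version 3) of long bone stroma, taken at 12 weeks of age from the metaphyseal ends of tibia and femur. Of these, 2 libraries came from *Lats2*iΔEC mutants, named Lats2iECKO in the labels, and 2 from controls. Mutants carried loxP-flanked *Lats2* alleles and the *Cdh5(PAC)-CreERT2* transgene, which drives a tamoxifen-dependent Cre recombinase in endothelial cells. According to the methods of the study, controls were Cre-negative littermates given the same course of tamoxifen as young mice, whereas their label calls them untreated. Both groups carried the *Cdh5(PAC)-mT/nG* reporter, and hematopoietic cells were depleted from both with antibodies to lineage markers, CD45 and CD117. The labels do not tie each library to separate animals, so p-values measure at most the spread between libraries.

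LATS2 is a kinase of the Hippo pathway that restrains the transcriptional co-activators YAP1 and TAZ. IGF1 and IGF2 are growth factors that act on the tyrosine kinase receptor IGF1R, and in bone they support the growth of the growth plate and the formation of matrix by osteoblasts. IGF2R binds IGF2 and carries it to lysosomes. The binding proteins IGFBP2 to IGFBP6 hold IGFs with high affinity and either keep them from the receptor or release them near cells, often after cleavage by proteases such as PAPPA. IGFBP7 is a related secreted protein with low affinity for IGFs that is found around vessels.

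Libraries held between 69636600 and 85899079 UMIs, and 24599 barcodes passed the filters on UMIs, features, mitochondrial and hemoglobin content. From marker genes, 20825 of them were gated as endothelial cells (ECs), bone marrow stromal cells (BMSCs), osteoblasts (OBs), chondrocytes (CHOs), *Prg4*+ cells (Prg4+), smooth muscle cells (SMCs) and fibroblasts (FB). None of the 10 genes was used in a gate. Of 19 markers kept out of the gates, 16 were highest in the class they mark, and *Pdgfra* for BMSCs, *Cspg4* for SMCs and *Sod3* for fibroblasts were highest elsewhere. In ECs, *Lats2* stood at 91.9 and 97.1 CPM in mutants and at 134 and 123 CPM in controls, and *Cre-ERT2* at 54.2 and 49.0 CPM against 0.662 and 0.847 CPM. The share of BMSCs was 15.4% and 16.4% of gated cells in mutants and 38.2% and 36.7% in controls, that of CHOs 41.7% and 39.0% against 20.9% and 21.0%, and that of SMCs 11.4% and 11.1% against 4.94% and 5.12%. Free RNA made up an estimated 4.73% to 6.21% of UMIs as the median over classes in a library, with 1.67% to 27.3% in single classes, the highest in fibroblasts of the first control, and 66 barcodes were kept in more than 1 library. CPM are the UMIs of a gene scaled by all UMIs of the class in a library, and since introns were counted they are compared between cell types within a gene and not between genes.

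In control bones each gene had its own distribution over cell types. *Igf1* was highest in fibroblasts, at 622 and 790.3 CPM, followed by BMSCs at 298 and 291 CPM and SMCs at 85.7 and 76.4 CPM, and ECs, Prg4+ cells, CHOs and OBs followed in that order, from 22.5 down to 2.697 CPM. No neighbours in this order overlapped, but OBs at 2.697 and 3.596 CPM stood at the level that free RNA would give, 2.77 and 3.26 CPM. *Igf2* was scarce in every class, with 7.73 and 8.83 CPM in BMSCs, 8.35 and 7.12 CPM in ECs and 7.19 and 6.41 CPM in SMCs, and the ECs overlapped with both others while BMSCs and SMCs did not overlap. Reads of *Igf2* can be shared with *Gm49394*, annotated on the same strand within it, so its values are uncertain.

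The receptors were spread more evenly. *Igf1r* lay between 132 and 339 CPM in 6 of the 7 classes, highest in SMCs (339 and 305 CPM), and stood at 61.2 and 55.0 CPM in OBs. *Igf2r* was highest in SMCs at 132 and 113 CPM, and its levels in fibroblasts and CHOs overlapped, as did those in BMSCs and ECs. Both receptors were lowest in OBs, a class in which 7 osteoblast markers alone took 148090 and 146715 CPM of the control libraries.

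Of the binding proteins, *Igfbp2* and *Igfbp3* were highest in ECs, *Igfbp4* in BMSCs, *Igfbp5* in BMSCs and fibroblasts, *Igfbp6* in fibroblasts and *Igfbp7* in SMCs. *Igfbp2* stood at 41.7 and 35.1 CPM in ECs, with BMSCs next at 2.17 and 3.13 CPM. *Igfbp3* stood at 436 and 327 CPM in ECs, followed by BMSCs at 146 and 144 CPM. *Igfbp4* stood at 3344 and 3515 CPM in BMSCs, followed by SMCs at 1072 and 1304 CPM. *Igfbp5* was high in BMSCs (3502 and 3380.0 CPM) and fibroblasts (2620.5 and 3745 CPM), which overlapped, and lower in SMCs and Prg4+ cells, at 1712 and 1687 CPM and at 1600.0 and 1429 CPM. *Igfbp6* marked fibroblasts at 2654 and 2180.1 CPM and Prg4+ cells at 657 and 652 CPM, against at most 27.8 CPM elsewhere. *Igfbp7* stood at 4285 and 4549 CPM in SMCs, between 1909 and 2978 CPM in Prg4+ cells, fibroblasts, ECs and BMSCs, and was near the free RNA level of 50.03 and 54.1 CPM in OBs alone. The plot of levels by class and library shows these distributions.

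**Figure D1:**
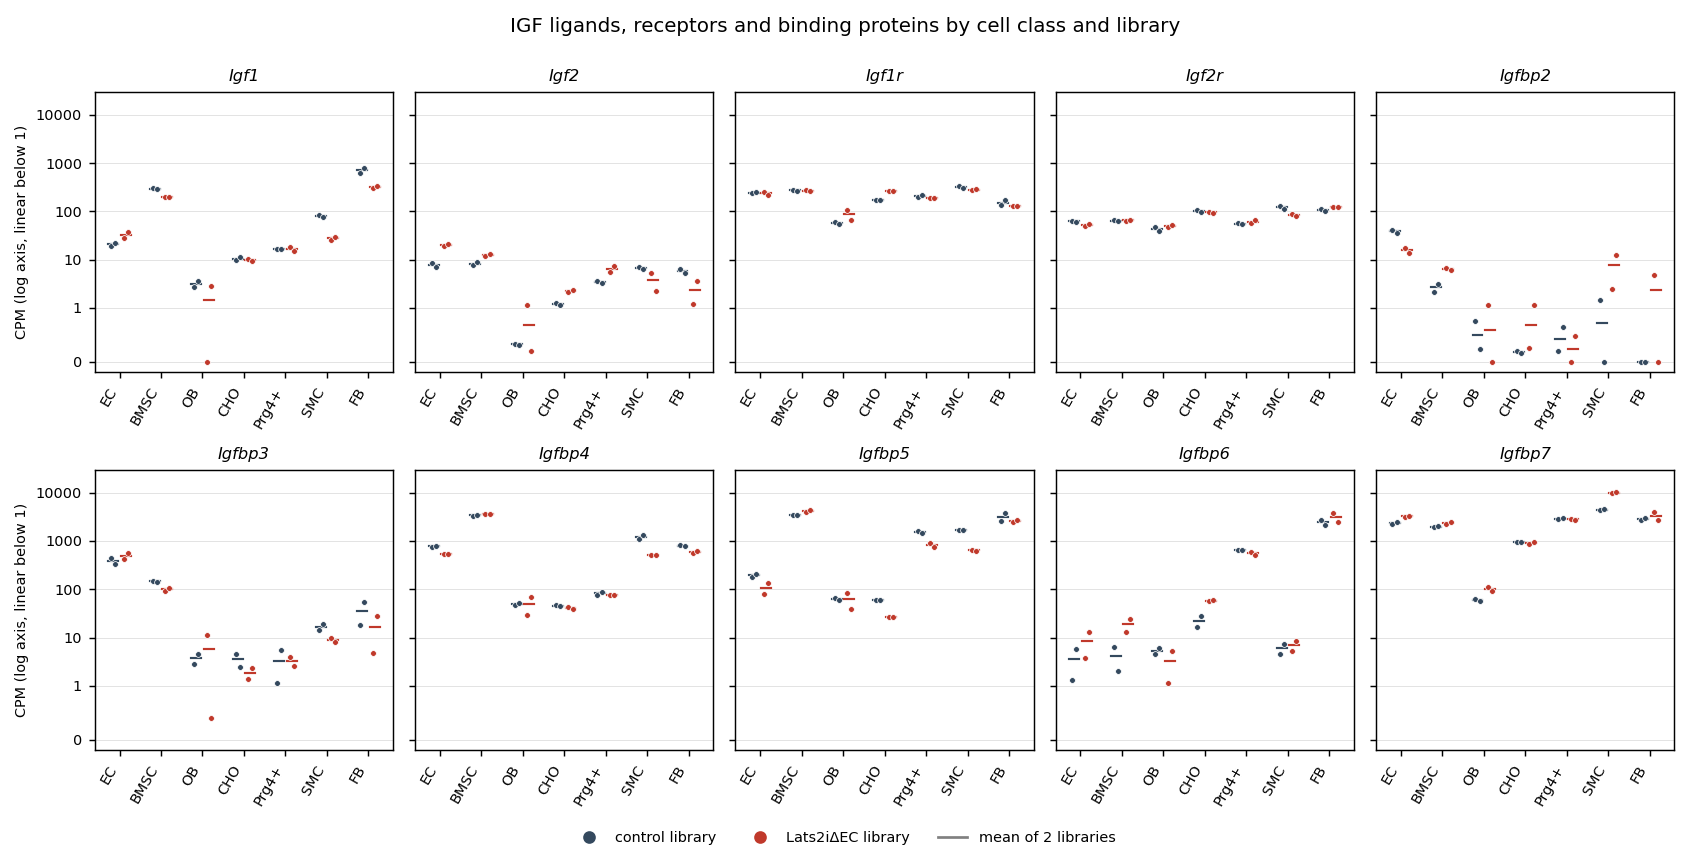
Level of each gene in CPM (logarithmic axis, linear below 1) in the 7 cell classes, with 1 point per library and a bar at the mean of the 2 libraries of a group. *Igfbp7* in SMCs stands above 9880 CPM in both mutant libraries and at 4285 and 4549 CPM in the controls.

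Over the 14 control sums of the 7 classes, the genes most like each member were found by Pearson correlation of log2(CPM + 1), a description of points that share libraries and depth. *Igf1* was followed by the complement gene *C1ra* (r = 0.975) and the microfibril gene *Fbn1* (0.970), *Igfbp2* by *Gpr182* (0.983), a receptor of sinusoidal ECs, and *Igfbp6* by the mesenchymal homeobox gene *Prrx2* (0.986). For *Igfbp3* they were *Ppp6r2* (0.986) and the cadherin gene *Fat4* (0.983), for *Igfbp4* *Ksr1* (0.986), for *Igfbp5* *Camk2n1* (0.965), for *Igfbp7* *Psma1* and *Tmtc1* (0.981 each), for *Igf1r* *Gprasp1* (0.976), for *Igf2r* *Hspd1* (0.919) and for *Igf2* *Gm49804* (0.983).

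To find how the genotype changed each gene within a cell type, UMIs were summed per library and class and compared with edgeR, and a gene was called at a Benjamini-Hochberg adjusted p of at most 0.05 over all genes tested in the class. Of 70 pairs of a gene and a class, 39 had enough counts to be tested, and 9 were higher and 8 lower in mutants. Of the genes tested 3 of 5 were called in ECs, where 61.3% of all genes were, 5 of 7 in BMSCs (49.4% of all genes), 2 of 5 in OBs (7.96%), 1 of 4 in CHOs (64.6%), 1 of 6 in Prg4+ cells (20.1%), 4 of 5 in SMCs (50.4%) and 1 of 7 in fibroblasts (0.616%). The median log2 fold change of the members tested was 0.01 in ECs, 0.07 in BMSCs and −0.53 in SMCs, beside medians of all genes within 0.007 of 0. Of the 39 pairs 3 passed the filter on cells with a UMI through 1 group only, and none of these was called. With 2 libraries against 2, an exact permutation test of 1 value cannot give a p under 0.333.

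**Figure D2:**
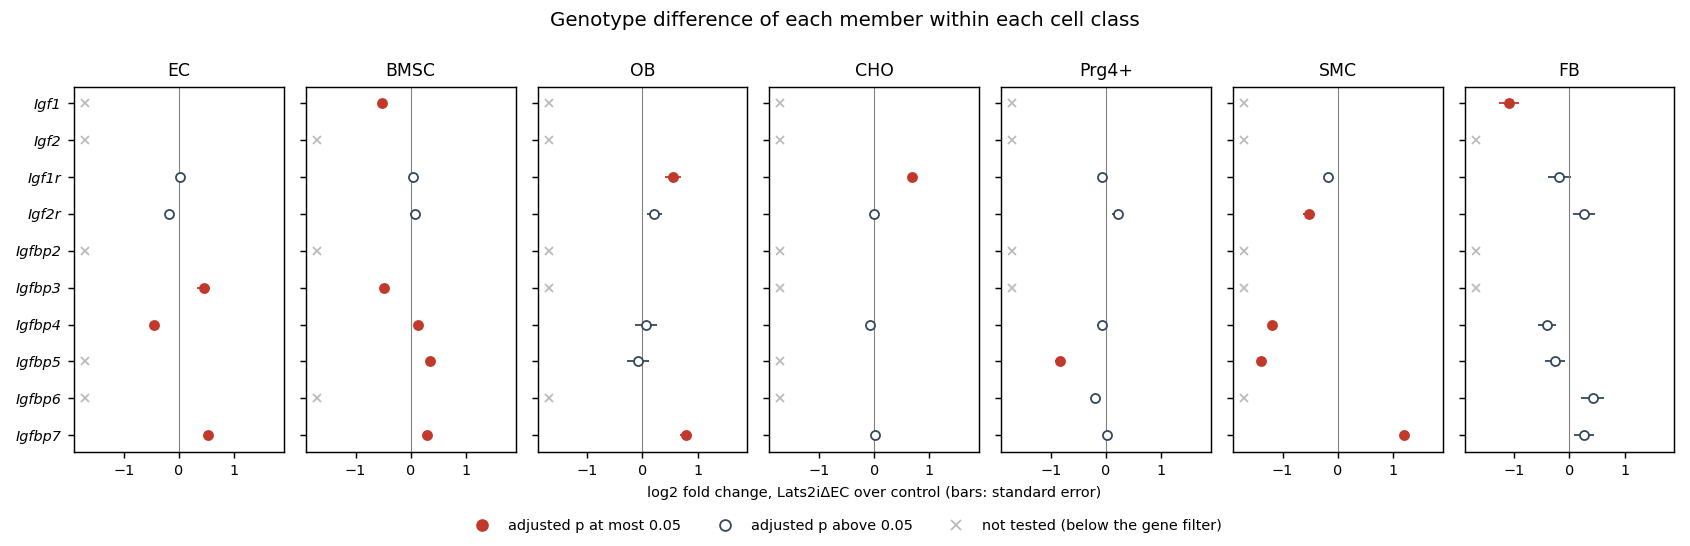
Log2 fold change of *Lats2*iΔEC over control for each gene in each class, with standard errors from edgeR as bars. Filled points have an adjusted p of at most 0.05, open points do not, and crosses at the left margin mark genes that were not tested; SMCs hold both the largest rise (1.199, *Igfbp7*) and the largest fall (−1.39, *Igfbp5*).

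Among the ligands, *Igf1* (ENSMUSG00000020053, chromosome 10 of GRCm39 from 87693642 to 87772904) fell in both classes in which it is most abundant. In BMSCs it stood at 298 and 291 CPM in controls and at 198 and 199.5 CPM in mutants (log2 difference −0.51 with a standard error of 0.05, edgeR, adjusted p = 2.57e-08). Both mutant libraries lay below both controls, and the fall was found in both BMSC subtypes. In dpMSCs, the diaphyseal subtype gated by *Adipoq* and *Lepr*, *Igf1* went from 336 and 347 to 253 and 235 CPM (log2 fold change −0.45, edgeR, adjusted p = 8.90e-06; 5 of 7 members tested called beside 36.9% of all genes). In mpMSCs, the metaphyseal subtype gated by *Postn* and *Kcnk2*, it went from 226 and 194 to 135 and 174 CPM (−0.37, edgeR, adjusted p = 0.0215; 4 of 6 called beside 23.5%). The call in mpMSCs ended without control replicate 1 and without mutant replicate 1, at −0.27 and −0.22, and it ended under DESeq2, without the gene filter and with a stricter gate, while without mutant replicate 2 the value was −0.57. The BMSC markers summed in BMSCs were 24565 and 24786 CPM in mutants and 26732 and 26327 CPM in controls, with 6 of 8 lower in both mutants, and their part in these results was not tested. In mpMSCs these markers went from 10514 and 9962 to 6394 and 6293 CPM, with 7 of 8 lower in both mutants. OB markers in mpMSCs went from 3459 and 3689 to 1135 and 1054 CPM. The part of both in the mpMSC values of *Igf1*, *Igfbp4* and *Igfbp7* was not tested.

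In fibroblasts *Igf1* stood at 622 and 790.3 CPM in controls and at 309 and 329 CPM in mutants (−1.10, standard error 0.19, edgeR, adjusted p = 0.0370), the only member called there. Fibroblasts were the smallest class, with 44 to 71 cells per library, and the first control held 288 CPM of EC markers and 7093 CPM of *Prg4*+ cell markers against at most 25.0 and 3675 CPM in the other libraries. The BMSC markers summed in fibroblasts were 2453 and 2034 CPM in controls and 750.0 and 1317 CPM in mutants, with 6 of 8 lower in both mutants, and their part in the result was not tested. Without that control the log2 fold change was −1.27 and remained called, and under a stricter marker gate it was −0.83 and was not called (edgeR, adjusted p = 0.190), nor was it in the fit without the gene filter (adjusted p = 0.137).

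In SMCs and ECs *Igf1* had a count in under 20% of cells and was tested only in a fit of all genes without the filter. In SMCs it went from 85.7 and 76.4 to 25.2 and 30.0 CPM (log2 fold change −1.46, edgeR without the filter, adjusted p = 1.72e-21), beside 16.8% of all genes called in that fit. In the unfiltered fits of SMCs, Prg4+ cells and OBs, p-values matched a normal distribution of the change over its standard error. They take the dispersion as known and do not measure a gene's own spread between libraries. The *Myh11*+ SMCs, of which the 4 libraries held 236 to 287 cells each, went from 85.7 and 71.9 to 23.1 and 26.04 CPM (−1.61, adjusted p = 7.57e-16, 8.32% of all genes called). The BMSC markers summed in *Myh11*+ SMCs were 1560 and 2591 CPM in controls and 947 and 1152 CPM in mutants, with 5 of 8 lower in both mutants, and their part in the falls of *Igf1*, *Igfbp4* and *Igfbp5* in these cells was not tested. ECs moved the other way, from 19.2 and 22.5 to 28.5 and 37.6 CPM (0.77, adjusted p = 8.50e-04, 17.8% of all genes called). Within ECs, *Igf1* was highest in alECs, arteriole-like ECs gated by *Vwf* and *Fmo2*, where 87.3 and 52.2 CPM in controls and 85.9 and 104 CPM in mutants overlapped (0.47, edgeR, adjusted p = 0.123), and alECs were 107 and 105 of the control ECs and 144 and 198 of the mutant ECs. In aECs *Igf1* was at 8.70 and 14.5 CPM in controls and at 0.819 and 1.39 CPM in mutants, where free RNA would give 1.13 and 1.32 CPM.

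*Igf2* (ENSMUSG00000048583, chromosome 7 from 142204503 to 142220694) passed the filter in aECs alone. There, in arterial ECs gated by *Gja5*, *Sox17* and *Bmx*, it rose from 28.1 and 25.4 CPM in controls to 72.5 and 71.8 CPM in mutants (1.47, standard error 0.19, edgeR, adjusted p = 4.72e-06; 3 of 6 members called beside 26.5% of all genes). It passed the filter through the mutants, where 31.6% of aECs held a UMI against 14.6% in controls. All ECs, in the fit without the filter, went from 8.35 and 7.12 to 19.2 and 21.3 CPM (1.48, adjusted p = 6.02e-06). In that fit *Igf2* was also called higher in CHOs, from 1.29 and 1.13 to 2.13 and 2.38 CPM (edgeR, adjusted p = 0.0210, 20.3% of all genes called). Prg4+ cells were called higher too, from 3.65 and 3.29 to 5.63 and 7.39 CPM (adjusted p = 0.0111, 6.96%). Both mutants lay above both controls in BMSCs and below both in SMCs, neither called (adjusted p = 0.0585 and 0.315). The SMC markers summed in aECs were 186 and 245 CPM in mutants and 45.1 and 25.0 CPM in controls, and their part in the rise of *Igf2* in aECs was not tested.

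Among the receptors, *Igf1r* (ENSMUSG00000005533, chromosome 7 from 67601518 to 67883416) rose in CHOs. It stood at 175 and 176 CPM in controls and at 258 and 268 CPM in mutants (0.68, standard error 0.04, edgeR, adjusted p = 4.07e-08), with both mutant libraries above both controls. The rise was largest in hypertrophic CHOs (HCHOs), gated by *Col10a1*, from 152 and 189 to 319 and 343 CPM (1.01, edgeR, adjusted p = 2.23e-05; 2 of 5 members called beside 41.4%). Prehypertrophic CHOs (PHCHOs), gated by *Ihh*, went from 168 and 170.1 to 253 and 248 CPM (0.66, adjusted p = 7.43e-07; 3 of 4 called beside 44.9%). Columnar CHOs went from 173 and 164 to 201 and 213 CPM (0.40, adjusted p = 2.46e-04; 4 of 4 called beside 35.1%), which was not called without the gene filter (0.38, edgeR, adjusted p = 0.0521). None of those 4 calls held without the gene filter, and *Igfbp6* among them passed it through the mutants alone (32.1% against 14.7% of cells). Proliferating CHOs went from 181 and 191 to 272 and 360.0 CPM (0.84, adjusted p = 0.0189; 3 of 5 called beside 5.89%), a call that ended without control replicate 1 (0.79) and without mutant replicate 2 (0.59). The 8 CHO markers fell together in CHOs, from 52839 and 53833 to 34497 and 34129 CPM, and the libraries held 589 and 606 HCHOs in mutants but 80 and 70 in controls.

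*Igf1r* in OBs stood at 61.2 and 55.0 CPM in controls and at 107 and 67.6 CPM in mutants (0.55, edgeR, adjusted p = 0.0277). The first mutant library set this call, since without it the log2 fold change was 0.21 (edgeR, adjusted p = 0.333), and it was not called without control replicate 2 either (0.49), nor under DESeq2, with a stricter cell filter or with free RNA subtracted. Without mutant replicate 2 it was 0.90. In BMSCs and ECs the genotypes overlapped, at 274 and 267 against 271 and 263 CPM in BMSCs and at 238 and 251 against 248 and 222 CPM in ECs. The BMSC subtypes moved apart, with dpMSCs at −0.18 (edgeR, adjusted p = 0.0173) and mpMSCs at 0.27 (adjusted p = 0.0260). Neither value was stable, as the first was not called under DESeq2 or without control replicate 1 (−0.16) and the second was called in 4 of 13 alternatives. In SMCs 339 and 305 CPM in controls stood above 277 and 284 CPM in mutants without passing the test (−0.17, edgeR, adjusted p = 0.0811), and in Prg4+ cells and fibroblasts it was not called either, at −0.07 and −0.18. In *Myh11*+ SMCs *Igf1r* fell from 338 and 305 to 237 and 244 CPM (−0.38, edgeR, adjusted p = 0.00584; 4 of 5 members called beside 28.1%), which was not called with a stricter cell filter.

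*Igf2r* (ENSMUSG00000023830, chromosome 17 from 12901293 to 12988614) fell in SMCs, from 132 and 113 CPM in controls to 87.0 and 79.8 CPM in mutants (−0.53, standard error 0.11, edgeR, adjusted p = 2.62e-04). In *Myh11*+ SMCs the groups overlapped, at 130.2 and 114 against 120.1 and 92.5 CPM (−0.17, adjusted p = 0.369). *Myh11*- SMCs, of which the controls held 3 and 14, had 59.4 and 69.5 CPM in mutants. In columnar CHOs it rose from 95.8 and 84.0 to 104 and 99.3 CPM (0.28, edgeR, adjusted p = 0.0116), a call that ended under DESeq2, with library totals, without the gene filter and without mutant replicate 1 (0.25) or control replicate 2 (0.20). In all 4 EC subtypes both mutant libraries lay below both controls, without passing the test in any of them (log2 fold changes −0.53 to −0.29, adjusted p 0.0888 to 0.220). Nor was it called in all ECs (−0.17, adjusted p = 0.0931), in CHOs, at 106 and 98.7 against 96.5 and 94.1 CPM, or in fibroblasts, at 111 and 99.9 against 121 and 124 CPM. The antisense gene *Airn* overlaps *Igf2r*, and the counting used strand.

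By a rule that only chose sequences to print and does not compare genes, the 3 binding proteins whose pooled level differed most in CPM are *Igfbp4* and *Igfbp5*, which fell, and *Igfbp7*, which rose. Their promoter sequences ahead of the start site follow, to place the genes and to show 2 short motifs, the core TATAAA on the gene's strand and the core of the TEAD binding site, CATTCC or GGAATG, on either strand. TEAD proteins are the DNA-binding partners of YAP1 and TAZ. The sequences are those of RefSeq (table of build GRCm38.p6), found once each in GRCm39, and end where the gene begins in GENCODE M39. Capitals mark the motifs.

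*Igfbp4*, chr11:98931820-98932063, + strand: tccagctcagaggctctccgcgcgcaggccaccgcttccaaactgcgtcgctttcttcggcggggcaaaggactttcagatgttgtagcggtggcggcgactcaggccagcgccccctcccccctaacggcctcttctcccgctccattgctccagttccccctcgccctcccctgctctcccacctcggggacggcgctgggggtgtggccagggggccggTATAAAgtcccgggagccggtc
*Igfbp5*, chr1:72914044-72914274, - strand: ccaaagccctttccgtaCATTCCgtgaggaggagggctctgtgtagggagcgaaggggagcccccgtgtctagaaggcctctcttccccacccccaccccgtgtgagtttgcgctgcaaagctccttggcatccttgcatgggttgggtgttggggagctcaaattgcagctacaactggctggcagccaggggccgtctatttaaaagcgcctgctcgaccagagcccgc
*Igfbp7*, chr5:77555932-77556142, - strand: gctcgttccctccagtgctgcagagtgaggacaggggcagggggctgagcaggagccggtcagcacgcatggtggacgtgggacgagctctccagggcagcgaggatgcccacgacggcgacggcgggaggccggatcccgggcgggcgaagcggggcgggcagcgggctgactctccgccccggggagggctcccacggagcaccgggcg

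The *Igfbp4* stretch holds TATAAA, the *Igfbp5* stretch holds CATTCC 233 bases before its RefSeq start, and the *Igfbp7* stretch holds neither. Of 32851 windows of 250 bases ahead of RefSeq starts, 12.6% hold CATTCC or GGAATG and 7.59% hold TATAAA. The 10 genes have 14 such windows, and 4 of them, of *Igf2* and *Igfbp5*, hold the first motif. Whether TEAD binds there was not measured.

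*Igfbp7* (ENSMUSG00000036256, chromosome 5 from 77493130 to 77555931) was called higher in SMCs, ECs, BMSCs and OBs, in the last of which it lay near the level of free RNA. In SMCs it stood at 4285 and 4549 CPM in controls and at 9880.3 and 10088 CPM in mutants (log2 difference 1.199 with a standard error of 0.07, edgeR, adjusted p = 1.64e-12). In *Myh11*+ SMCs it rose from 4289.9 and 4478 to 6299 and 6704 CPM (0.60, edgeR, adjusted p = 3.33e-05). *Myh11*- SMCs had 12853 and 12870 CPM in mutants, where they were 247 and 278 cells, and 14 control cells of the second library gave 6233 CPM, so the sum over SMCs also moves with their share. The 7 SMC markers fell from 20814 and 21250 to 9907 and 10435 CPM in SMCs, 6 of them in both mutants.

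ECs as a whole rose from 2273 and 2452 to 3102 and 3353 CPM of *Igfbp7* (0.52, edgeR, adjusted p = 9.47e-06), and the EC subtypes did not move alike. In mpECs, metaphyseal ECs gated by *Aplnr* and *Gpihbp1*, *Igfbp7* went from 2782 and 3051 to 5454 and 5673 CPM (0.98, edgeR, adjusted p = 1.35e-07; 4 of 6 members called beside 37.8%). In bmECs, bone marrow ECs gated by *Stab2*, it rose from 1702 and 1811 to 2665 and 2306 CPM (0.56, adjusted p = 0.00359; 2 of 6 called beside 16.2%), a call that ended without control replicate 1 (0.51). In alECs it rose from 2034 and 2305 to 2940.1 and 2821 CPM (0.43, adjusted p = 3.81e-04; 1 of 6 called beside 14.7%). In aECs it fell, from 2194 and 2480.0 to 1211 and 1679.6 CPM (−0.63, edgeR, adjusted p = 7.87e-05; DESeq2, adjusted p = 0.0779). The difference between the subtypes was not tested. The alEC gate uses *Vwf*, which the study reports as upregulated in mutant mpECs. Cells gated as alECs were 107 and 105 in controls and 144 and 198 in mutants, and mpECs 255 and 240 against 106 and 141. The part of this gate in the values of the members in alECs, among them *Igfbp7*, *Igf1* and *Igfbp5*, was not tested.

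In BMSCs *Igfbp7* went from 1909 and 2019 to 2208 and 2413 CPM (0.29, edgeR, adjusted p = 8.85e-05; 0.22 and adjusted p = 0.0511 without the gene filter), with mpMSCs at 975 and 1028 against 1380.3 and 1574 CPM (0.62, adjusted p = 9.78e-05) and dpMSCs at 2435 and 2613 against 2681 and 2629 CPM (0.11, adjusted p = 0.0691). OBs stood at 61.7 and 56.7 CPM in controls and at 114 and 92.9 CPM in mutants (0.79, edgeR, adjusted p = 1.28e-04). Free RNA would give 50.03 and 54.1 CPM in controls and 68.0 and 81.0 CPM in mutants, and after its subtraction the log2 fold change was 1.88 and not called (edgeR, adjusted p = 0.0847). In CHOs and Prg4+ cells the groups overlapped. Among the CHO subtypes, PHCHOs went from 465 and 482 to 359.6 and 420.4 CPM (−0.19, edgeR, adjusted p = 0.0344), which was not called under DESeq2, without the gene filter, with a stricter gate or without mutant replicate 1 (−0.09) or control replicate 2 (−0.155). Columnar CHOs were higher by the test although the libraries overlapped, at 1516 and 1440.2 against 1504 and 1724 CPM (0.23, edgeR, adjusted p = 0.0123), which was not called with library totals, without the gene filter or without mutant replicate 2 (0.13).

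*Igfbp4* (ENSMUSG00000017493, chromosome 11 from 98932064 to 98945218) fell in SMCs and ECs. In SMCs it went from 1072 and 1304 to 511 and 519.6 CPM (−1.18, standard error 0.08, edgeR, adjusted p = 1.44e-11), and in *Myh11*+ SMCs from 1076 and 1335 to 702 and 683 CPM (−0.77, adjusted p = 1.16e-04). In ECs it went from 753 and 796 to 532 and 547 CPM (−0.45, adjusted p = 8.52e-06), with mpECs at −0.52 (adjusted p = 7.27e-04), bmECs at 0.12 and alECs at −0.11, neither of these called. In aECs it was higher in mutants, at 415 and 356 against 455 and 447 CPM (0.29, edgeR, adjusted p = 0.0368), a call that ended under DESeq2, with library totals and without mutant replicate 1 (0.27), mutant replicate 2 (0.29) or control replicate 2 (0.18). The bmECs had the highest level of the EC subtypes, 1179 and 1253 CPM in controls, and fell in number from 234 and 232 to 68 and 76 cells. BMSC markers summed in ECs were 1800 and 2036 CPM in controls and 1386 and 1427 CPM in mutants, and their part in the fall was not tested.

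In BMSCs, where *Igfbp4* is highest, 3344 and 3515 CPM in controls stood beside 3583 and 3599 CPM in mutants (0.12, edgeR, adjusted p = 0.0463). This call ended under DESeq2, with library totals (0.07), without the gene filter (0.05), without mutant replicate 1 (0.12), without mutant replicate 2 (0.12) and without control replicate 1 (0.09). The subtypes moved in opposite directions. In dpMSCs *Igfbp4* rose from 4027 and 4272 to 5126 and 5017 CPM (0.32, edgeR, adjusted p = 9.06e-06), called in all 13 alternatives. In mpMSCs it went from 2219.7 and 2306 to 1724 and 1771 CPM (−0.31, adjusted p = 0.0152), and this call ended with a stricter gate and with any 1 library left out (−0.35 to −0.28). In fibroblasts 816 and 789 CPM in controls stood above 553 and 623 CPM in mutants without passing the test (−0.40, edgeR, adjusted p = 0.352). In OBs, CHOs and Prg4+ cells *Igfbp4* lay between 29.7 and 86.5 CPM in all libraries, where free RNA would give 17.8 to 45.4 CPM. In PHCHOs it fell from 41.0 and 33.4 to 23.9 and 17.2 CPM (−0.76, edgeR, adjusted p = 0.00103), near those levels, and it passed the filter on cells through the controls alone (21.3% of cells with a UMI against 10.4%). The BMSC markers there were 385 and 335 CPM in controls and 174 and 205 CPM in mutants, and their part in the fall was not tested. In proliferating CHOs it went from 41.5 and 67.3 to 18.8 and 21.4 CPM (−1.35, adjusted p = 0.0259), a call that ended under DESeq2, with a stricter gate and without mutant replicate 1 (−1.21), mutant replicate 2 (−1.46) or control replicate 2 (−0.97).

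*Igfbp5* (ENSMUSG00000026185, chromosome 1 from 72897091 to 72914043), which lies next to *Igfbp2* and points towards it, fell in SMCs and Prg4+ cells and rose in BMSCs. In ECs it was tested in the fit without the filter alone and was lower in mutants, at 182 and 207 against 80.9 and 136 CPM (−0.74, edgeR, adjusted p = 9.57e-04). In that fit it was also called lower in aECs, where 149.6 and 63.8 CPM in controls stood against 9.01 and 16.7 CPM in mutants (8.24% of all genes called). These are 189 and 79 UMIs against 11 and 24, and both mutant values lay under the free RNA level of 23.2 and 28.2 CPM, with 48.1 and 52.7 CPM for controls, so no fold is given. The alECs went from 229.8 and 377 to 37.2 and 124 CPM (−1.69, 5.43% of all genes called). The BMSC markers were lower too, at 3010 and 3039 against 1916 and 2215 CPM in aECs and at 2685 and 3133 against 1355 and 1114 CPM in alECs, with 7 of 8 lower in both mutants in each, and their part in these values was not tested. In SMCs it went from 1712 and 1687 to 652 and 624 CPM (−1.39, standard error 0.07, edgeR, adjusted p = 6.15e-14). In *Myh11*+ SMCs it went from 1717 and 1744 to 1239 and 1195 CPM (−0.47, adjusted p = 2.20e-04), while *Myh11*- SMCs of mutants had 165 and 156 CPM. In Prg4+ cells it went from 1600.0 and 1429 to 906 and 746 CPM (−0.82, standard error 0.09, adjusted p = 1.92e-04), called in all 13 alternatives. The CHO markers summed in Prg4+ cells were 5080 and 5348 CPM in controls and 6629 and 8220 CPM in mutants, and their part in the fall was not tested.

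BMSCs went from 3502 and 3380.0 to 3966 and 4421 CPM of *Igfbp5* (0.34, standard error 0.05, edgeR, adjusted p = 1.50e-05), and dpMSCs from 4778 and 4756 to 6322 and 6705 CPM (0.49, adjusted p = 5.41e-08). In mpMSCs the groups overlapped, at 1074 and 928 against 719.5 and 947 CPM. The bmECs rose from 184 and 283 to 423 and 380.4 CPM (0.84, edgeR, adjusted p = 0.00969), which was not called without control replicate 1 (0.56). The BMSC markers summed in bmECs were 977 and 1053 CPM in controls and 1528 and 1664 CPM in mutants, with 5 of 8 higher in both mutants, and their part in the rise was not tested. In mpECs it stood at 196 and 169 CPM in controls and at 26.2 and 133 CPM in mutants, with both mutant libraries below the controls but far from each other (−1.09, edgeR, adjusted p = 0.0194; DESeq2, adjusted p = 0.509; with free RNA subtracted, adjusted p = 0.0740). It passed the filter through the controls alone (20.8% against 12.96% of cells), and BMSC markers were 1525 and 1939 CPM in controls and 996 and 1174 CPM in mutants, a part that was not tested. The value was −0.40 without mutant replicate 1 and −2.75 without mutant replicate 2. In HCHOs *Igfbp5* fell from 96.7 and 128 to 29.5 and 30.7 CPM (−1.83, edgeR, adjusted p = 3.87e-07). It passed the filter through the controls alone, with a UMI in 22.0% of cells against 9.62%, and the mutant values lay near the free RNA level. In proliferating CHOs, 41 to 61 cells per library, it went from 57.4 and 162 to 4.91 and 10.1 CPM (−3.82, standard error 0.57, edgeR, adjusted p = 0.00327), having passed the filter through the controls alone (23.0% against 14.0% of cells), with both mutants below the free RNA level, and it was not called with a stricter gate (−3.48). All CHOs, in the fit without the filter, went from 60.4 and 61.1 to 26.6 and 26.9 CPM (−1.14, adjusted p = 1.28e-04, 20.3% of all genes called), near the free RNA level in both groups. The BMSC markers were 779 and 573 CPM in control and 326 and 395 CPM in mutant HCHOs, 355 and 745 against 231 and 190.3 CPM in proliferating CHOs and 592 and 555 against 442 and 493 CPM in all CHOs, and their part in these falls was not tested.

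*Igfbp3* (ENSMUSG00000020427, chromosome 11 from 7156086 to 7164179), the main carrier of IGFs in blood, was higher in mutant ECs by the test although the libraries overlapped. It stood at 436 and 327 CPM in controls and at 427 and 565 CPM in mutants (0.45, standard error 0.12, edgeR, adjusted p = 0.00418). The second mutant library set this call, as without it the log2 fold change was 0.24 and not called, and DESeq2 did not make it (adjusted p = 0.198). Without control replicate 2 it was 0.26. In mpECs it rose from 438 and 396 to 682 and 829 CPM (0.91, standard error 0.11, edgeR, adjusted p = 6.47e-06), called in all 13 alternatives. In bmECs, in the fit without the filter, it went from 32.5 and 26.2 to 56.6 and 57.9 CPM (0.94, adjusted p = 0.00462, 6.41% of all genes called). In aECs, which had the highest level in controls, 1084 and 821 CPM stood beside 665 and 849.9 CPM in mutants (−0.26, adjusted p = 0.0924). In BMSCs it fell from 146 and 144 to 91.2 and 107 CPM (−0.48, edgeR, adjusted p = 7.94e-07), and in dpMSCs from 215 and 221 to 149 and 174 CPM (−0.39, adjusted p = 3.13e-04).

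*Igfbp6* (ENSMUSG00000023046, chromosome 15 from 102052697 to 102057953) did not pass the test in Prg4+ cells, at 657 and 652 against 594 and 513 CPM (−0.19, edgeR, adjusted p = 0.0854; called lower without the gene filter, −0.20, adjusted p = 0.0134, 6.96% of all genes), nor in fibroblasts, where the libraries overlapped. It rose in columnar CHOs, gated by *Sfrp5* and *Chil1*, from 30.1 and 62.7 to 116 and 118 CPM (1.44, standard error 0.19, edgeR, adjusted p = 4.71e-05). It passed the filter through the mutants, was 1.41 and not called without the filter (adjusted p = 0.128), and was 0.995 and 2.07 without control replicate 1 or 2. Without the filter it was called higher in all CHOs, from 16.9 and 27.8 to 56.8 and 59.6 CPM (1.43, edgeR, adjusted p = 0.00481), and in PHCHOs, from 1.32 and 4.002 to 11.2 and 18.1 CPM (adjusted p = 0.00745, 11.7% of all genes called), where the controls lay near the free RNA level of 3.14 and 3.33 CPM. That fit also called *Igfbp6* higher in BMSCs, from 6.45 and 2.00 to 13.2 and 24.2 CPM (2.15, edgeR, adjusted p = 0.0458), with controls near the same level. In proliferating CHOs, called too (4.56%), 56 and 2 UMIs in mutants stood against 2 and 0 in controls, so the first mutant library set the value. Prg4+ markers were 282 and 365 CPM in controls and 572 and 692 CPM in mutants in columnar CHOs, and 158 and 215.5 against 314 and 347 CPM in all CHOs, with 3 of 4 higher in both mutants in each, and their part in the rise was not tested. *Igfbp2* (ENSMUSG00000039323, chromosome 1 from 72863606 to 72891634) was tested in bmECs alone, where 95.2 and 71.2 CPM in controls and 39.3 and 71.7 CPM in mutants overlapped (−0.50, adjusted p = 0.207). In all ECs, in the fit without the filter, it went from 41.7 and 35.1 to 17.5 and 13.7 CPM (−1.22, adjusted p = 4.62e-06). Within mpECs that fit gave 34.3 and 35.3 against 16.01 and 19.4 CPM (−0.91, adjusted p = 0.00534, 12.9% of all genes called). The same fit called *Igfbp2* higher in BMSCs, from 2.17 and 3.13 to 6.70 and 5.96 CPM (1.23, edgeR, adjusted p = 0.0337). It was called higher in SMCs too, from 1.44 and 0 to 2.42 and 12.7 CPM (adjusted p = 6.09e-08, 16.8% of all genes called). The mutant libraries were far from each other, which this p-value does not reflect. The part of the lower number of bmECs in the fall over all ECs was not tested.

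**Figure D3:**
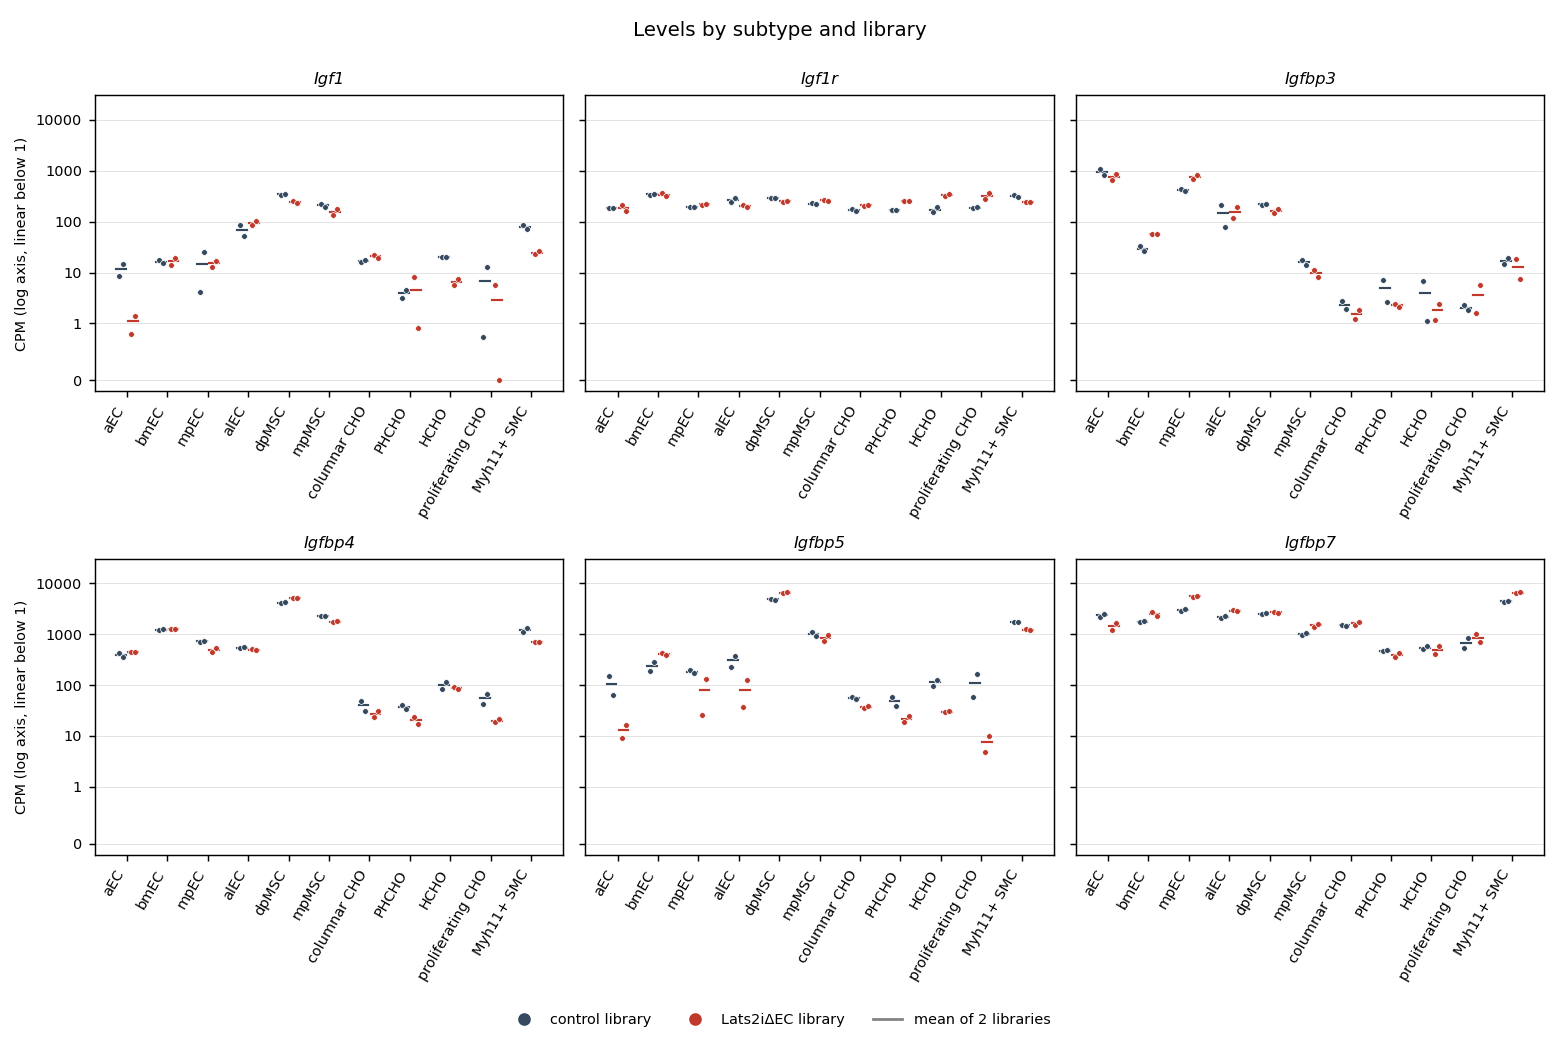
Level of 6 of the genes in CPM (logarithmic axis, linear below 1) in the 11 subtypes that had at least 10 cells in every library, with 1 point per library and a bar at the mean of the 2 libraries of a group. *Igfbp7* is higher in mutants in mpECs, bmECs, alECs, mpMSCs and *Myh11*+ SMCs and lower in aECs and PHCHOs, and in columnar CHOs its libraries overlap, and *Igf1r* is higher in all 4 CHO subtypes.

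In the 11 subtypes together, 60 of 110 pairs were tested, 19 were higher and 16 lower in mutants, beside 5.89% to 44.9% of all genes called by subtype, and 6 of these calls passed the filter through 1 group only. A further fit of all classes, with the library as a block, tested whether the genotype effect in a class differed from the mean effect in the other 6. That mean weighted each class alike, also those in which a gene lay near the free RNA level. This fit tested 56 pairs of 8 genes and called 11. In SMCs 5 genes differed, *Igfbp7* by 0.88 (log2, standard error 0.14, adjusted p = 9.39e-05) and *Igf1*, *Igfbp4*, *Igfbp5* and *Igf2r* by −1.24 to −0.63, beside 23.5% of all genes called. The SMC class took *Myh11*+ and *Myh11*- cells together, with 3 and 14 *Myh11*- cells in controls and 247 and 278 in mutants. The part of that shift in the SMC differences was not tested. In CHOs *Igf1r* differed by 0.64 (adjusted p = 3.06e-04, 33.1% of all genes called), in BMSCs *Igfbp5* by 1.04 (adjusted p = 0.0145, 5.42%) and in ECs *Igf1* by 1.41 (adjusted p = 9.06e-05, 24.3%). Of all genes 6.99% were called in OBs, 9.85% in Prg4+ cells and 0.422% in fibroblasts. Without mutant replicate 2 the value of *Igf1* in SMCs was −0.17 and not called and that in ECs was 2.36, and without either control *Igfbp5* in BMSCs was not called (0.98 and 1.11). With free RNA subtracted those of *Igf1*, *Igfbp4* and *Igf2r* in SMCs and of *Igf1r* in CHOs were called, and the other 7 were not, among them *Igf1* in ECs (0.94) and *Igfbp7* in SMCs (0.70).

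In all gated stromal cells pooled, a sum that mixes cell numbers, UMIs per cell and levels, *Igf1* fell from 92.6 and 89.4 to 34.3 and 37.6 CPM (−1.28, standard error 0.05, edgeR, adjusted p = 1.12e-12), having passed the filter through the controls alone (30.8% against 15.7% of cells). *Igfbp4* fell from 1012 and 1024 to 469 and 509.6 CPM (−1.002) and *Igfbp5* from 1173 and 1116 to 608 and 673 CPM (−0.78), while *Igfbp7* rose from 1437 and 1500.1 to 2256 and 2397 CPM (0.72) and *Igf1r* from 190.4 and 188 to 242 and 239.6 CPM (0.40), all with both mutants on one side of both controls. *Igf2r* rose by 0.18, a call that ended without control replicate 2 (0.13), and *Igfbp3* was not called, so 6 of 7 genes tested were called beside 76.1% of all genes. *Igfbp6*, in the fit without the filter, rose from 91.5 and 97.8 to 160.0 and 142 CPM (0.69, adjusted p = 2.66e-05, 32.1% of all genes called).

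Split by class shares of all stromal UMIs and by levels within classes, from the means of the 2 libraries of a group, the falls of *Igfbp4* and *Igfbp5* lay mostly in shares. These shares move with UMIs per cell as well as with cell numbers. For *Igfbp4* −490.2 of −529.4 CPM came from shares and −39.2 from levels, and for *Igfbp5* −460.9 of −505.0 CPM from shares. Both parts were of like size for *Igfbp7*, at 416 CPM from shares and 443 CPM from levels, and for *Igf1* they were −32.5 and −22.6 CPM. *Igf1r* gained 19.3 CPM from shares and 32.7 CPM from levels. The class means behind the part from levels were not adjusted for subtypes within a class. SMCs, in which *Myh11*- cells were more numerous in mutants, gave 306 CPM of the part from levels of *Igfbp7*. For *Igfbp5* the part from levels, −44.1 CPM, is a net value. It holds 131 CPM in BMSCs, −87.9 CPM in Prg4+ cells, −58.3 CPM in SMCs and falls of at most 13.7 CPM in each other class. All these parts are descriptions with no test.

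**Figure D4:**
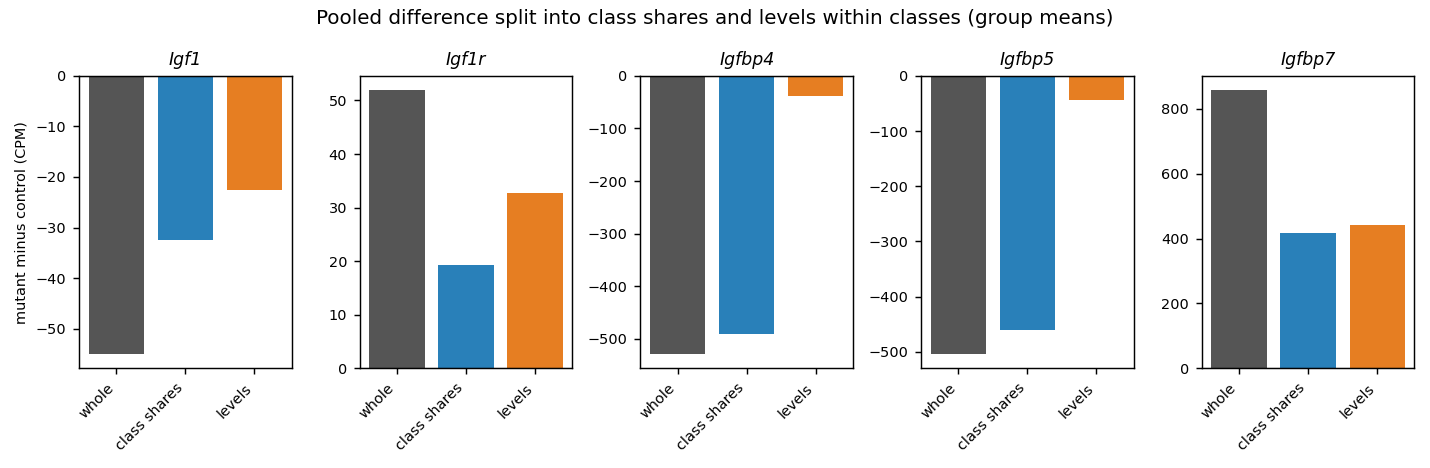
Difference in CPM of the pooled stromal level, mutant minus control, for 5 genes, with the whole difference and its parts from class shares of UMIs and from levels within classes as bars from 0 (means of 2 libraries per group, a linear axis for each gene). For *Igfbp4* the part from shares is −490.2 CPM and the part from levels −39.2 CPM.

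The classes that held the UMIs of these genes differed between genotypes. BMSCs held 83.3% and 80.2% of the *Igf1* UMIs of the gated stroma in controls and 53.1% and 53.0% in mutants. SMCs held 8.82% and 9.31% of *Igfbp7* in controls and 34.7% and 33.8% in mutants, and CHOs 28.4% and 28.5% of *Igf1r* against 54.8% and 53.4%. ECs held 52.6% and 44.9% of *Igfbp3* in controls and 81.0% and 84.0% in mutants. BMSCs still held most of *Igfbp4* in mutants, 70.4% and 70.6% against 85.4% and 84.6%.

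**Figure D5:**
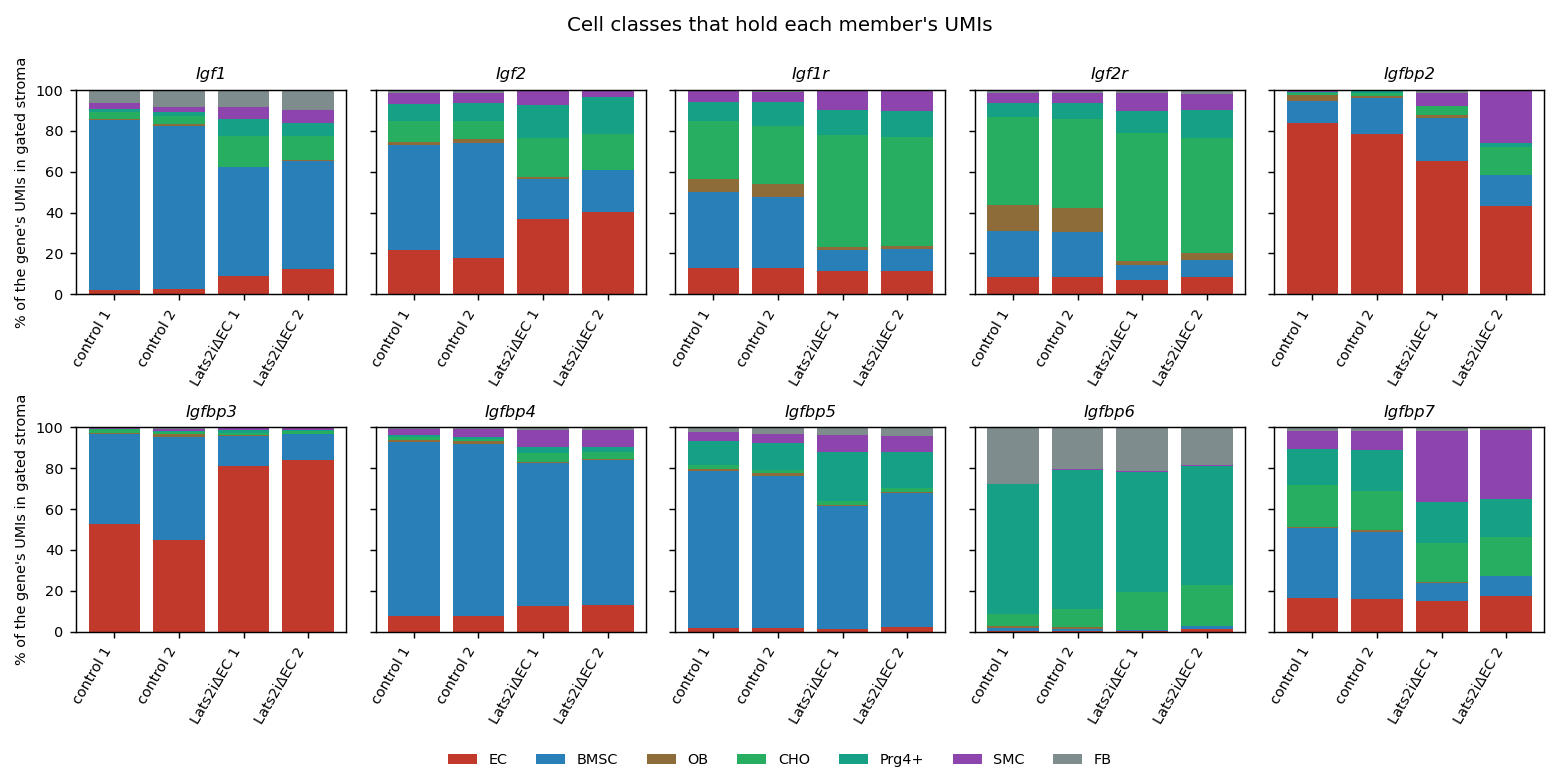
Share in percent of each gene's UMIs that each cell class held, as stacked bars for each of the 4 libraries. The BMSC share of *Igf1* is 83.3% and 80.2% in controls and 53.1% and 53.0% in mutants, and the SMC share of *Igfbp7* is 8.82% and 9.31% against 34.7% and 33.8%.

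Of 44 other genes of the IGF axis (relatives and proteases of the binding proteins, the growth hormone arm, insulin receptor signal transduction and imprinted growth genes), 181 pairs of a gene and a class were tested, and 43 were higher and 43 lower in mutants. By class, 7 rose and 10 fell of 21 tested in ECs (61.3% of all genes called), 7 and 11 of 28 in BMSCs (49.4%), 5 and 0 of 25 in OBs (7.96%), 11 and 12 of 32 in CHOs (64.6%), 5 and 4 of 27 in Prg4+ cells (20.1%) and 8 and 6 of 25 in SMCs (50.4%). DESeq2 called 1 of the 25 in OBs. In fibroblasts 0 of 23 were called by edgeR, beside 0.616% of all genes, and 0 by DESeq2. Of these 23, 7 had an unadjusted p under 0.05 (edgeR), a count for which no share over all genes was taken. *Irs2*, an adaptor of the insulin and IGF1 receptors, rose in CHOs from 27.8 and 31.9 to 72.1 and 70.9 CPM (1.35, edgeR, adjusted p = 2.98e-09) and in BMSCs from 21.1 and 23.3 to 65.1 and 51.4 CPM (1.44, adjusted p = 2.73e-11). *Eif4ebp1*, a repressor of cap-dependent translation, rose in CHOs from 17.7 and 17.3 to 77.9 and 72.2 CPM (2.19) and in ECs from 38.2 and 42.0 to 90.6 and 84.0 CPM (1.19). The values of the axis genes, here and below, are of main classes alone, whose subtypes shifted. HCHOs numbered 589 and 606 in mutants and 80 and 70 in controls, and bmECs 68 and 76 against 234 and 232. The part of such shifts in the values of the axis genes was not tested.

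The insulin receptor gene *Insr* fell in ECs from 600.1 and 609 to 241 and 253 CPM (−1.23, edgeR, adjusted p = 2.40e-10), and the cell cycle inhibitor *Cdkn1c* fell in ECs (−1.05) and rose in BMSCs (0.68). *Pappa*, the protease that cleaves IGFBP4 and releases its IGF, fell in BMSCs from 1916 and 1812 to 1146 and 1133 CPM (−0.65, edgeR, adjusted p = 1.21e-10). In SMCs *Socs2*, an inhibitor of growth hormone signaling, rose from 14.95 and 12.8 to 43.5 and 47.0 CPM (1.73), *Lrp1* rose by 1.16 and *Stat5b*, a transducer of growth hormone signaling, fell from 74.2 and 78.6 to 38.4 and 41.4 CPM (−0.91). SMCs included 247 and 278 *Myh11*- cells in mutants and 3 and 14 in controls. The part of that shift in the SMC values of axis genes was not tested. The secreted protease *Htra1* rose in ECs, BMSCs, OBs, CHOs and SMCs, by 0.375 in SMCs to 1.01 in OBs, and fell in Prg4+ cells, from 942 and 892 to 634 and 612 CPM (−0.51).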

How the data were processed

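The 4 libraries were single-cell RNA-seq of depleted stromal cells from long bone. The authors trimmed reads with cutadapt 3.5 and aligned them with STARsolo 2.7.10a to GRCm39 with GENCODE M26 genes and the transgenes, counting exonic and intronic UMIs by strand and sharing reads of several genes, so the deposited values are expected counts that need not be whole. They were summed over cells and rounded to whole numbers before testing.

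Barcodes were kept at 1000 UMIs, 800 features, under 15% mitochondrial and 5% hemoglobin UMIs and a complexity above 0.8, which left 5119 and 5887 in mutants and 6813 and 6780 in controls. Cells were gated by a marker score of at least 0.3, ahead of the next class by 0.2. The scoring rule was set after seeing the data, Prg4+ cells were treated as a class of their own, and no doublet caller was run: 2183 barcodes without a clear class stayed ungated, 1591 were of other types and 440 gated cells lay within 0.1 of a limit. Free RNA was taken from barcodes of at most 100 UMIs.

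Sums per library and class were compared with edgeR 4.0.16 (R 4.3.3, TMM normalization, quasi-likelihood test, genotype as the term, Benjamini-Hochberg adjustment) for genes that passed its expression filter and had a UMI in at least 20% of the cells of a group. Fits were tested on simulated counts with 200 genes set to change. The EC fit recovered 100% of changes of 1 log2 unit, and the fibroblast fit recovered 38.4% of these and 97.2% of changes of 2 units. A gene not called in fibroblasts is therefore not shown to be unchanged. Alternatives were DESeq2 1.42.0, other normalizations, no gene filter, stricter cells or gates, subtraction of free RNA, leaving out a library and a replicate block. Members are named in each class or subtype where they were called, and other tested values in part. Other axis genes are named as up to 3 per class with the largest change among those called with separate groups, of which some are given. Outside that rule, *Htra1* is also given in ECs, BMSCs, CHOs and SMCs. Like genes are named as up to 3 per member. The members and lists were chosen with earlier results of these data known. Positions are those of GENCODE M39. Counting error and spread between libraries at most are covered by the tests. A gene's own spread is not covered in the unfiltered fits of SMCs, Prg4+ cells and OBs.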

Additional observations from a re-analysis of the deposited data

Results flagged for a closer look

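In 11 pairs of a gene and a class the genotype effect differed from the mean effect in the other classes (edgeR, a test of the difference itself, on the log2 scale). In SMCs the differences were 0.88 for *Igfbp7*, −0.95 for *Igfbp5*, −1.04 for *Igfbp4*, −1.24 for *Igf1* and −0.63 for *Igf2r*. In ECs they were 1.41 for *Igf1* and 0.92 for *Igfbp3*, in BMSCs 1.04 for *Igfbp5* and in CHOs 0.64 for *Igf1r*. The mean of the other classes weighted each alike, also those near the free RNA level. These were OBs for *Igf1*, OBs, CHOs and Prg4+ cells for *Igfbp3*, and OBs and CHOs for *Igfbp5*. Within ECs, the groups overlapped for *Igf1* in alECs, which were more numerous in mutants, and aECs were lower in both mutants. The part of that shift was not tested. *Igfbp7* differed by −0.50 in CHOs and by −0.47 in Prg4+ cells. These are not falls, since within both classes the groups overlapped and it was not called (log2 fold changes 0.022 and 0.016). The SMC class held 3 and 14 *Myh11*- cells in controls and 247 and 278 in mutants, and the part of that shift in the SMC differences was not tested. *Igfbp3* in ECs was not called without mutant replicate 2 (0.84), without control replicate 2 (0.25) or with a stricter marker gate (0.91, edgeR, adjusted p = 0.0586). *Igfbp7* in CHOs and Prg4+ cells was not called without either control, and in Prg4+ cells it was not called with that gate (−0.45).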

How the results depend on the processing

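Of the 17 calls in main classes 11 were kept under all 13 alternatives, of 35 in subtypes 16 and of 6 in the pooled stroma 5. *Igfbp4* in PHCHOs was kept under the 12 that gave it a value, with none from the subtraction of free RNA. The counts under alternatives in this section compare settings alone, and the shares of all genes called under each setting are not given beside them. Without the gene filter 28 of 70 pairs in main classes were called, 15 higher and 13 lower. With library totals in place of TMM 19 were called, 8 higher and 11 lower beside 9 and 8, and in subtypes 33, 15 higher and 18 lower beside 19 and 16. DESeq2 called 14 in main classes and 26 in subtypes. Differences between classes numbered 11 and became 24 without the filter, 6 with free RNA subtracted and 7 to 19 with a library left out. Calls with a library left out ranged from 17 to 19 in main classes, 28 to 33 in subtypes, 5 to 7 in the pooled stroma and 70 to 84 among axis genes.

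The replicate numbers are shared by both groups but no label ties them to a common batch, and deviations of same-numbered libraries correlated between −0.111 and 0.0923 by class. With the replicate block 16 calls were made in main classes, 32 in subtypes, 6 in the pooled stroma and 87 among axis genes, and the calls of *Igfbp4* in BMSCs, mpMSCs and aECs and of *Igf1* in mpMSCs ended. With crossed numbers, tried after seeing the data since the pooled stroma gave −0.31, they were 17, 37, 6 and 86.

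In main classes and the pooled stroma, the values that changed sign were those of genes not called. Of subtype values tested, compared in sign with the fit without the gene filter, *Igf1r* in bmECs went from 0.056 to −0.036 and *Igfbp4* in alECs from −0.106 to 0.001, neither called. With library totals *Igf1r* was −0.058 in ECs and −0.018 in BMSCs and *Igfbp7* −0.072 in CHOs and −0.034 in Prg4+ cells. Without the gene filter *Igf1r* was −0.036 and *Igf2r* −0.005 in BMSCs, *Igfbp4* −0.037 in OBs and *Igfbp7* −0.024 in CHOs. With stricter cells *Igf1r* was −0.003 in ECs and *Igf2r* −0.004 in BMSCs, and with a stricter gate *Igf1r* was −0.037 in BMSCs and *Igfbp7* −0.057 in CHOs and −0.012 in Prg4+ cells. With free RNA subtracted *Igf1r* was −0.002 in ECs, *Igfbp5* 1.378 in OBs, *Igfbp4* 2.907 in CHOs and 0.545 in Prg4+ cells and *Igfbp7* −0.039 in CHOs and −0.015 in Prg4+ cells. With the replicate block *Igfbp4* was −0.005 in OBs. With a library left out *Igf1r* ranged from −0.068 to 0.092 in ECs, −0.145 to 0.001 in Prg4+ cells and −0.355 to 0.019 in fibroblasts, *Igf2r* from −0.056 to 0.034 in CHOs, *Igfbp3* from −0.375 to 0.142 in the pooled stroma, *Igfbp4* from −0.733 to 0.456 in OBs and −0.157 to 0.006 in Prg4+ cells, *Igfbp5* from −0.682 to 0.455 in OBs and −0.502 to 0.044 in fibroblasts, and *Igfbp7* from −0.063 to 0.102 in CHOs, −0.014 to 0.044 in Prg4+ cells and −0.058 to 0.524 in fibroblasts. The cause was not tested.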
